A study of Mus musculus with 28 samples.

Results

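The prostanoid and leukotriene enzymes are 10 genes that turn arachidonic acid into lipid mediators, and they were followed in mouse bone marrow-derived macrophages across 6 treatment groups. Members were found by gene name on the arrays (Ptgs1, Ptgs2, Ptges, Tbxas1, Hpgds, Alox5, Alox5ap, Ltc4s, Lta4h and Alox15). Hpgds is listed there under the older name Ptgds2. All 10 were found, on 15 probes, among 27670 named genes, and each gene was represented by its brightest probe. All 10 passed the filter on dim probes, as did 22446 genes in all. That filter asks for a signal well above background on at least 3 of the 28 arrays.

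The macrophages came from C57BL6/J marrow, pooled from several animals of 8 to 12 weeks (the labels name 2 males and 1 female), and every group was grown in recombinant CSF1 (200 ng/ml), the macrophage growth factor. Cells of the IL-4 plus LPS group (4 arrays) received interleukin 4 at 10 ng/ml for 18 h and lipopolysaccharide (LPS), a bacterial cell wall component, at 10 ng/ml for the last 4 h. The IL-4 group (4 arrays) received the cytokine alone. The IFN-γ plus LPS group (3 arrays) received interferon-γ at 100 U/ml for 18 h with the same LPS, and the IFN-γ group (3 arrays) interferon-γ alone. The LPS group (7 arrays) had no cytokine, and the untreated group (7 arrays) neither agent. Replicates carry experiment letters, A to G in the LPS and untreated groups. Arrays of the IL-4 groups have the letters A, B, C and G, and those of the IFN-γ groups E, F and G. Nothing in the labels says whether the letters stand for separate pools of animals, so p-values measure the spread between these arrays, which may be partly technical.

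Prostanoid synthesis starts when a phospholipase frees arachidonic acid and a cyclooxygenase, Ptgs1 or Ptgs2, turns it into prostaglandin H2. Terminal enzymes then make prostaglandin E2 (Ptges), thromboxane (Tbxas1) or prostaglandin D2 (Hpgds). In the leukotriene branch Alox5, helped by the membrane protein Alox5ap, makes leukotriene A4, which Lta4h turns into leukotriene B4 and Ltc4s into leukotriene C4. Alox15 is a lipoxygenase known as an IL-4 target in several macrophage types, and Ptgs2 is the inducible cyclooxygenase of inflammation.

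The stretch of promoter just before the start is shown for 4 members that tell the prostanoid findings, Ptgs2 and Ptges, which rose with LPS and IFN-γ, and Ptgs1 and Tbxas1, which rose with IL-4. The sequences are from RefSeq (build GRCm38.p6), which held a promoter for 8 of the 10 members, and each runs 5′ to 3′ over the 250 bases before the annotated start. Capitals mark matches, on either strand, to one of the motifs searched. These were the cyclic AMP response element core CGTCA, the E-box CACGTG, the GAS element TTCNNNGAA, the STAT6 site, AP-1 (TGANTCA), the C/EBP palindrome TTGCGCAA, the ISRE, the TATA box TATAAA and the NF-kB motif.
Ptgs2, plus strand, chr1:150099781-150100030: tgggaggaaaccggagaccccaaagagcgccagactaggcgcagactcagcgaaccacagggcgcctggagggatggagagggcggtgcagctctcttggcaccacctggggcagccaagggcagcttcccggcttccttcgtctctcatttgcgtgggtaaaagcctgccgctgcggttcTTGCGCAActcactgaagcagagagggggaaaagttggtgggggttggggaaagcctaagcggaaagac
Ptges, minus strand, chr2:30903298-30903547: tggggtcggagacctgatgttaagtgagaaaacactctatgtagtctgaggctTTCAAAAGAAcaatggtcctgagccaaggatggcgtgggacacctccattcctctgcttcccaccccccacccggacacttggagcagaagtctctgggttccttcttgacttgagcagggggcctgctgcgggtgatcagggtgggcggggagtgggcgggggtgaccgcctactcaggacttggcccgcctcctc
Ptgs1, plus strand, chr2:36230176-36230425: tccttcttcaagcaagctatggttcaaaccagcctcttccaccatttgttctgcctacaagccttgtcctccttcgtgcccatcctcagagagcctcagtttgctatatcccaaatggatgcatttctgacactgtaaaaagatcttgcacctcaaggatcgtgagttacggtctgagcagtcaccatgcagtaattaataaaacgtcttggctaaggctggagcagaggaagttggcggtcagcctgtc
Tbxas1, plus strand, chr6:38918736-38918985: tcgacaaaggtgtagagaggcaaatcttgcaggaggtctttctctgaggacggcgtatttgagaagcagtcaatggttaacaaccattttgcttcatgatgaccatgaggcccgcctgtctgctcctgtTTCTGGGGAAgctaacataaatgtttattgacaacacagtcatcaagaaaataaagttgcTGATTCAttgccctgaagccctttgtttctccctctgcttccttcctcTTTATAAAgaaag

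In Ptgs2 the capitals are the C/EBP palindrome, which begins 69 bases before the start and is found in 0.164% of 32851 promoters of the same length. In Ptges they are a STAT6 site that begins 197 bases before the start. Tbxas1 has a STAT6 site at 121 bases, an AP-1 match at 61 bases and overlapping TATA box matches on both strands at 13 and 11 bases. STAT6 sites are found in 5.85% of all such promoters, AP-1 matches in 6.75% and TATA boxes in 12.4%. Ptgs1 had no match in this window, nor did Hpgds, Alox5, Ltc4s and Lta4h. A match is a description of the letters and not a binding site.

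Levels below are log2 intensities minus the array's own 75th percentile, and levels of different genes cannot be compared because each has its own probe. The 75th percentile ran from 582 to 2113 intensity units, well above background were 60.0% to 78.6% of an array's probes, and arrays of a group correlated at 0.940 to 0.991 across genes. Macrophage markers checked the cell type, since all 8 of the list were above background on every array. Treatment labels were checked with genes known to answer each agent. Retnla reached 7.28 to 8.31 on the 8 arrays of the IL-4 groups and at most -6.60 on any other, and Cxcl9 6.94 to 8.17 on the 6 IFN-γ arrays and at most 6.07 elsewhere. The authors' value table was set against the scanner files. The columns of 26 of its 28 arrays matched another array's scanner file best (13 of them in another treatment group), so the scanner files were used, whose labels these marker genes bear out by treatment. Such genes cannot check the experiment letters within a treatment, so the letters remain in doubt in all groups, the untreated and LPS arrays among them. Among the IFN-γ arrays, those of experiment G stood apart from E and F in several members, and values without them are given below.

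**Figure D1:**
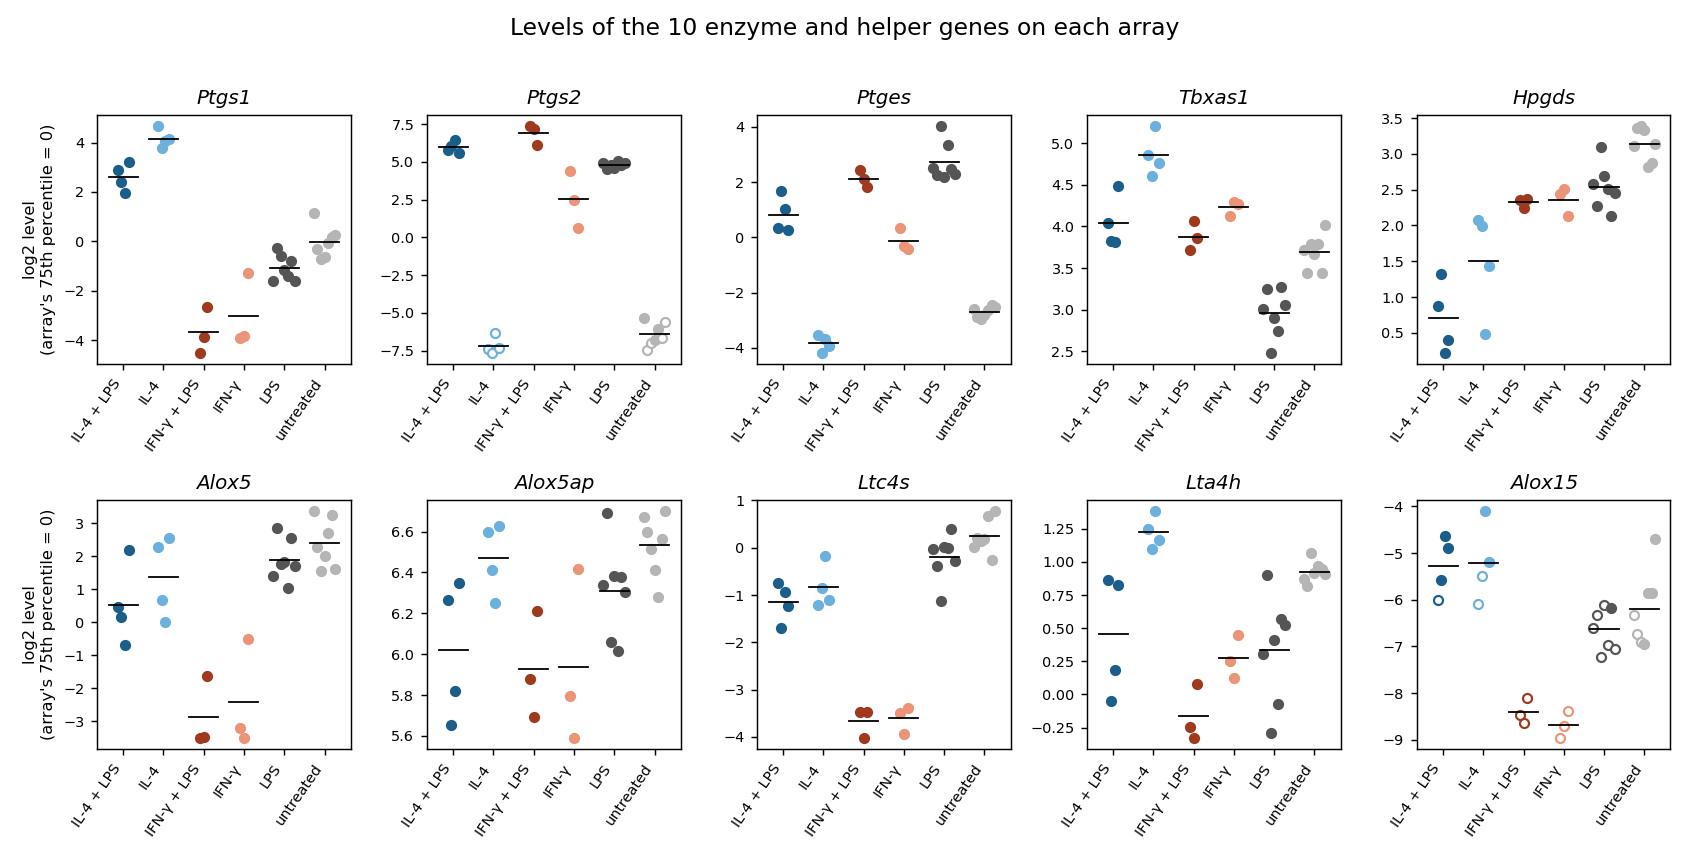
Log2 level of each of the 10 genes (vertical axis, array's 75th percentile = 0) on each of 28 arrays, by treatment group; filled points were well above background, open points were not, and lines are group means. Ptgs1 was highest in both IL-4 groups, Ptgs2 and Ptges were high with LPS, and Alox5, Ltc4s and Alox15 had their lowest group means in the IFN-γ groups.

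Changes are log2 fold changes ± standard error from 1 limma model of the 6 group means, and a gene was called at an adjusted p (Benjamini-Hochberg over all genes) under 0.05. With LPS against untreated, 2 members rose and 4 fell (42.3% of all genes were called, 20.8% higher and 21.5% lower). With IL-4 against untreated 2 rose and 3 fell, where 11.3% of all genes were called, 5.76% higher and 5.52% lower. With IFN-γ against untreated all 10 were called, 3 higher and 7 lower, where 25.9% of all genes were called, 12.7% higher and 13.2% lower. These 3 comparisons share the untreated arrays.

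After LPS, the priming cytokines still separated the members. IL-4 plus LPS against LPS called 3 members higher and 3 lower (8.96% of all genes called, 4.37% higher and 4.59% lower), and IFN-γ plus LPS against LPS called 2 higher and 4 lower (22.8% of all genes called, 10.7% higher and 12.1% lower). Both share the LPS arrays. LPS called 2 members higher and 4 lower in IL-4-primed cells (IL-4 plus LPS against IL-4, 31.2% of all genes called, 15% higher and 16.2% lower). In IFN-γ-primed cells it called 2 higher and 0 lower (IFN-γ plus LPS against IFN-γ, 11.8% of all genes called, 5.61% higher and 6.23% lower). Set directly against each other, IL-4 and IFN-γ differed in 9 members, 6 of them higher with IL-4 (27.9% of all genes called, 14.9% higher and 13% lower). With LPS added to both they differed in 6 members, 4 of them higher with IL-4 plus LPS (25.6% of all genes called, 13.9% higher and 11.7% lower). Members were chosen with earlier results of these data known, so these counts are a description. The median change of the 10 was -0.49 with LPS, -0.41 with IL-4 and -0.72 with IFN-γ, beside medians over all genes of 0.05, 0.01 and -0.29.

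**Figure D2:**
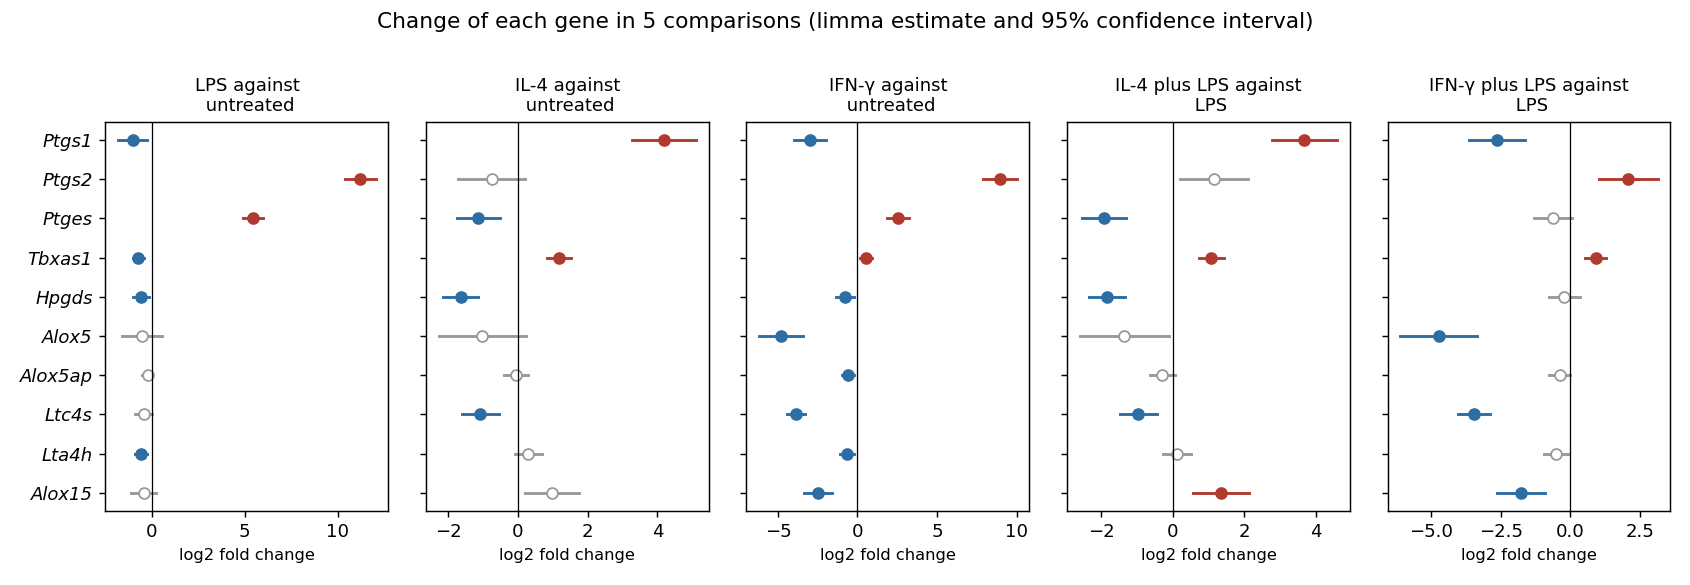
Log2 fold change of the 10 genes in 5 comparisons (horizontal axis, limma estimate with 95% confidence interval; red called higher, blue called lower, open grey not called). Horizontal scales differ between panels. Ptgs2 changed by 11.22 with LPS and 8.94 with IFN-γ, and Ptgs1 by 4.19 with IL-4 and -2.99 with IFN-γ.

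Ptgs1, the cyclooxygenase usually present without stimulation, was the member that IL-4 raised most, and it was among the members that IFN-γ lowered. Its levels were 2.89, 2.41, 1.96 and 3.20 on the IL-4 plus LPS arrays (experiments A, B, C and G) and 4.68, 3.78, 4.05 and 4.15 on the IL-4 arrays. They were -4.52, -3.88 and -2.66 on the IFN-γ plus LPS arrays (E, F and G) and -3.94, -3.85 and -1.28 on the IFN-γ arrays. The LPS arrays ran from -1.61 to -0.27 with a median of -1.17, and the untreated arrays from -0.73 to 1.16 with a median of -0.08. Every array of the IL-4 groups thus lay above every other array, and every IFN-γ array below every untreated array.

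Ptgs1 rose by 4.19 ± 0.44 with IL-4 against untreated (18.3-fold, limma adjusted p = 1.81e-07) and stood 3.68 ± 0.44 higher in IL-4 plus LPS than in LPS (adjusted p = 2.7e-06). It fell with IFN-γ, by -2.99 ± 0.49 (adjusted p = 4.56e-05), and stood -2.63 ± 0.49 in IFN-γ plus LPS against LPS (adjusted p = 0.00029). Without the IFN-γ array of experiment G the first of these was -3.86. Between IL-4 and IFN-γ the difference was 7.18 ± 0.54 (145-fold, adjusted p = 1.57e-10).

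LPS lowered Ptgs1 in unprimed cells by -1.03 ± 0.38 (adjusted p = 0.0294) and in IL-4-primed cells by -1.55 ± 0.50 (adjusted p = 0.0188). The fall in unprimed cells lost its call under normexp (adjusted p = 0.132) and median scaling (adjusted p = 0.0908) and when LPS array A, E or G or untreated array A or G was left out (-0.99 to -0.84, adjusted p 0.0512 to 0.0791), and the fall in IL-4-primed cells when IL-4 array A (-1.37, adjusted p = 0.062) or IL-4 plus LPS array C (-1.33, adjusted p = 0.0739) was, and under normexp (adjusted p = 0.0573). In IFN-γ-primed cells the value was -0.67 (95% interval -1.86 to 0.53, adjusted p = 0.598). Under normexp background correction Ptgs1 was not called lower in IFN-γ plus LPS against LPS (-1.47, adjusted p = 0.0807).

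Ptgs2, the inducible cyclooxygenase, ran from a signal at background to the largest rise of the 10 members in LPS against untreated. On the IL-4 plus LPS arrays its levels were 5.76, 6.06, 6.44 and 5.58 (A, B, C and G), and on the IL-4 arrays -7.43, -7.65, -6.32 and -7.31, none of them well above background. They were 7.39, 7.17 and 6.12 on the IFN-γ plus LPS arrays and 4.40, 2.51 and 0.65 on the IFN-γ arrays (E, F and G). The LPS arrays lay between 4.55 and 5.04 (median 4.82), and the untreated arrays between -7.44 and -5.33 (median -6.66), 3 of 7 of them well above background. No LPS array came near an untreated array, and the 3 IFN-γ arrays lay between these groups, far apart from each other.

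Ptgs2 rose by 11.22 ± 0.40 with LPS (adjusted p = 5.08e-17) and by 8.94 ± 0.51 with IFN-γ alone (adjusted p = 3.58e-12). With 3 of 7 untreated arrays above background these sizes are uncertain. Over the alternatives they ran from 7.75 to 11.40 with LPS and from 5.63 to 9.87 with IFN-γ, called each time. In IL-4-primed cells LPS raised it at least 3387-fold (13.14 on the fitted log2 scale, adjusted p = 1.17e-15). "At least" here and below sets the brighter group against a floor, set per array of the dim group at the dimmest signal still well above background there, or at the gene itself if brighter. The p-values beside such folds are from the fit without a floor. With untreated arrays held to that floor, the log2 change was 10.95 with LPS and 8.66 with IFN-γ. Against IFN-γ, the IL-4 arrays were at least 312-fold lower (adjusted p = 1.72e-12).

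On top of IFN-γ, LPS added 4.37 ± 0.61 (adjusted p = 2.4e-05). Ptgs2 stood 2.09 ± 0.51 higher in IFN-γ plus LPS than in LPS (adjusted p = 0.00387), though not under normexp (1.86, adjusted p = 0.105). In IL-4 plus LPS against LPS it was 1.16 (95% interval 0.19 to 2.12, adjusted p = 0.144), and the 4 primed arrays lay above all 7 LPS arrays. That difference was called with slide as a block (1.13, adjusted p = 0.043) and when the 2 groups alone were fitted (1.16, adjusted p = 0.00433). IL-4 against untreated gave -0.76 (95% interval -1.72 to 0.20, adjusted p = 0.383), between groups that were both mostly at background. Against IFN-γ plus LPS, IL-4 plus LPS gave -0.93 (95% interval -2.10 to 0.24, adjusted p = 0.24), called with slide as a block (-1.78, adjusted p = 0.025). The other Ptgs2 probe gave 11.26 with LPS and 9.25 with IFN-γ.

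Ptges, the inducible synthase of prostaglandin E2, shared the rises of Ptgs2 but stood lower wherever IL-4 was present. Its levels were 0.34, 1.67, 1.04 and 0.25 on the IL-4 plus LPS arrays and -3.53, -4.19, -3.69 and -3.93 on the IL-4 arrays (A, B, C and G). On the IFN-γ plus LPS arrays they were 2.44, 2.12 and 1.82, and on the IFN-γ arrays 0.35, -0.33 and -0.43 (E, F and G). LPS arrays ran from 2.18 to 4.04 (median 2.48) and untreated arrays from -2.95 to -2.45 (median -2.64). The IL-4 arrays were below all untreated arrays, and the IL-4 plus LPS arrays below all LPS arrays.

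LPS raised Ptges by 5.43 ± 0.26 in unprimed cells (43.2-fold, adjusted p = 9.62e-15), by 4.66 ± 0.34 in IL-4-primed cells (adjusted p = 5.32e-11) and by 2.27 ± 0.39 in IFN-γ-primed cells (adjusted p = 0.000298). IFN-γ alone raised it by 2.56 ± 0.33 (adjusted p = 1.97e-06). In IL-4 plus LPS it stood -1.91 ± 0.30 against LPS (3.76-fold lower, adjusted p = 9.91e-05) and -1.30 ± 0.37 against IFN-γ plus LPS (adjusted p = 0.00977). In IFN-γ plus LPS against LPS it was -0.61 (95% interval -1.29 to 0.08, adjusted p = 0.212).

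IL-4 alone lowered Ptges by -1.13 ± 0.30 (adjusted p = 0.0124). This call was lost under normexp (-0.22, adjusted p = 0.921) and without IL-4 array B (-1.02, adjusted p = 0.0597), and that of IL-4 plus LPS against IFN-γ plus LPS without IFN-γ plus LPS array E (-1.14, adjusted p = 0.0618), under normexp (adjusted p = 0.115) and when only the groups compared were fitted (adjusted p = 0.0799). With only the experiments that have both groups, the difference of IL-4 plus LPS against LPS was -1.96 (adjusted p = 0.108).

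How far priming changed the LPS response was tested as an interaction, subtracting the LPS change of unprimed cells from that of primed cells. For IFN-γ, Ptgs2 and Ptges were called and no other member was (8.31% of all genes were called, 3.03% higher and 5.28% lower). The Ptgs2 response was smaller by -6.85 ± 0.73 on the log2 scale (adjusted p = 9.6e-07) and the Ptges response by -3.17 ± 0.47 (adjusted p = 6.73e-05). Both had already risen with IFN-γ alone, and the untreated level of Ptgs2, which enters the interaction, was above background on 3 of 7 arrays. Within the 2 slides that hold all 4 groups both interactions had the same sign, and without both IFN-γ-group arrays of experiment G the same 2 members were called. For IL-4, 0 of the 10 were called by limma (1.59% of all genes were called, 0.904% higher and 0.682% lower), and 1 (Ptgs2) was at an unadjusted p under 0.05. Ptgs2 was the member nearest to it, at 1.91 ± 0.66 (adjusted p = 0.225), and it was called with slide as a block (1.87, adjusted p = 0.0427) and when the 4 groups alone were fitted (1.91, adjusted p = 0.0359). Over 33 alternatives its value ran from 0.67 to 2.20, and it was called in 2. The size is uncertain, since Ptgs2 was above background on 0 of 4 IL-4 arrays and 3 of 7 untreated arrays, which both enter it.

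**Figure D3:**
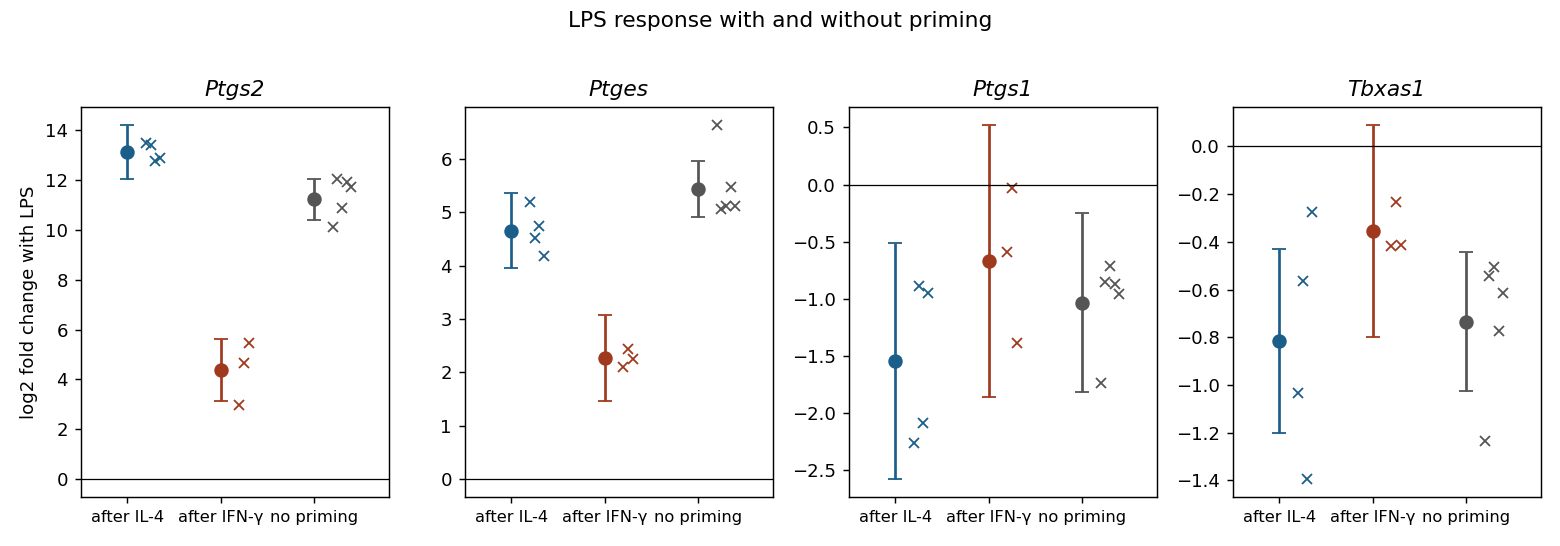
Log2 fold change with LPS (vertical axis) after IL-4, after IFN-γ and with no priming, for 4 genes. Circles with bars are limma estimates with 95% confidence intervals, and crosses are differences within single slides that hold both groups. The rises of Ptgs2 and Ptges after IFN-γ, 4.37 and 2.27, lie below those without priming, 11.22 and 5.43.

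Tbxas1, thromboxane synthase, rose with IL-4 and fell with LPS, by amounts of around 1 log2 unit or less. A smaller rise with IFN-γ lost its call in most alternatives. Its levels were 4.04, 3.82, 3.81 and 4.49 on the IL-4 plus LPS arrays and 4.85, 4.61, 5.21 and 4.77 on the IL-4 arrays (A, B, C and G). They were 3.71, 4.06 and 3.86 on the IFN-γ plus LPS arrays and 4.13, 4.30 and 4.27 on the IFN-γ arrays (E, F and G). LPS arrays spanned 2.48 to 3.28 (median 3.01) and untreated arrays 3.44 to 4.02 (median 3.72). The LPS arrays were the lowest of all groups, below every untreated array, and the IL-4 arrays the highest.

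The rise with IL-4 was 1.17 ± 0.17 (adjusted p = 1.56e-05) and the fall with LPS -0.73 ± 0.14 (adjusted p = 0.000115). LPS also lowered it in IL-4-primed cells, by -0.82 ± 0.19 (adjusted p = 0.00116), although not called under normexp (-0.81, adjusted p = 0.0537) or with the mean of the gene's 3 probes (-0.48, adjusted p = 0.0931). Against LPS alone it stood 1.08 ± 0.17 higher in IL-4 plus LPS (adjusted p = 6.91e-05) and 0.92 ± 0.18 higher in IFN-γ plus LPS (adjusted p = 0.000565). The first was lost under median scaling (0.98, adjusted p = 0.0667) and with only the experiments that have both groups (1.09, adjusted p = 0.0842), the second under normexp (0.66, adjusted p = 0.165) and with those experiments (0.85, adjusted p = 0.111). IL-4 stood 0.63 above IFN-γ (adjusted p = 0.0215), lost without IL-4 array C (0.51, adjusted p = 0.0803) or IFN-γ array E (0.58, adjusted p = 0.0867) and in 3 of 11 settings (adjusted p up to 0.654). The rise with IFN-γ alone, 0.54 ± 0.18 (adjusted p = 0.0313), was called in 10 of 22 alternatives. The gene's other probes gave 0.43 and, on a dim probe above background on 6 arrays, -0.43. Among those that lost the call were the replicate block (0.47, adjusted p = 0.117), slide as a block (0.48, adjusted p = 0.0786) and each IFN-γ array left out in turn, as well as untreated array B or F (0.50 to 0.59, adjusted p 0.056 to 0.105).

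Hpgds, the blood-cell form of prostaglandin D synthase, had its highest mean in untreated cells and its lowest in the IL-4 groups. Levels were 0.88, 1.32, 0.22 and 0.40 on the IL-4 plus LPS arrays and 2.08, 1.99, 0.48 and 1.44 on the IL-4 arrays (A, B, C and G). They were 2.36, 2.25 and 2.36 on the IFN-γ plus LPS arrays and 2.44, 2.51 and 2.13 on the IFN-γ arrays (E, F and G). LPS arrays ran from 2.13 to 3.09 (median 2.51) and untreated arrays from 2.81 to 3.39 (median 3.13). All 8 arrays of the IL-4 groups were below all 7 LPS arrays and all 7 untreated arrays.

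Hpgds fell by -1.65 ± 0.25 with IL-4 (3.13-fold lower, adjusted p = 2.99e-05), and IL-4 plus LPS stood -1.82 ± 0.25 against LPS (adjusted p = 1.21e-05). It stood -1.62 ± 0.30 in IL-4 plus LPS against IFN-γ plus LPS (adjusted p = 0.000228). These 3 falls were called under every alternative run. Smaller falls were called with LPS (-0.61 ± 0.21, adjusted p = 0.0192), with LPS in IL-4-primed cells (-0.79 ± 0.28, adjusted p = 0.0295), with IFN-γ (-0.79 ± 0.27, adjusted p = 0.0338) and in IL-4 against IFN-γ (-0.86 ± 0.30, adjusted p = 0.0329).

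Those smaller falls depended on the settings and on single arrays. The fall with LPS was lost under median scaling (-0.55, adjusted p = 0.0652). The fall with IFN-γ was lost without any of the 3 IFN-γ arrays or without untreated array B, C or D (-0.86 to -0.67, adjusted p 0.0517 to 0.136). That with LPS in IL-4-primed cells was lost without IL-4 array A or B or IL-4 plus LPS array C or G (-0.69 to -0.60, adjusted p 0.0801 to 0.132), and that of IL-4 against IFN-γ without IL-4 array C (-0.52, adjusted p = 0.157) or G, or IFN-γ array E or F. Over the other settings, limma called the fall with IFN-γ in 7 of 12 (adjusted p up to 0.456). It called that with LPS in IL-4-primed cells in 8 of 10 (adjusted p up to 0.222). The fall of IL-4 against IFN-γ was called in 8 of 11 (adjusted p up to 0.162).

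Alox5, the 5-lipoxygenase that starts leukotriene synthesis, fell in the IFN-γ groups. Its levels were -3.49, -3.47 and -1.64 on the IFN-γ plus LPS arrays and -3.19, -3.50 and -0.51 on the IFN-γ arrays (E, F and G). On the IL-4 plus LPS arrays they were 0.45, 0.15, -0.68 and 2.18, and on the IL-4 arrays 2.29, 0.67, 0.00 and 2.54 (A, B, C and G). LPS arrays ran from 1.04 to 2.84 (median 1.76) and untreated arrays from 1.56 to 3.37 (median 2.27). Every IFN-γ-group array lay below every LPS and every untreated array, with experiment G nearest to them, and the IL-4 groups spread widely.

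The fall with IFN-γ was -4.80 ± 0.67 (27.8-fold lower, adjusted p = 5.29e-06), and IFN-γ plus LPS stood -4.74 ± 0.67 against LPS (26.7-fold lower, adjusted p = 1.07e-05). Left-out arrays and other settings gave -5.74 to -4.25 for the first, always called. Alox5 was 3.77 ± 0.74 higher in IL-4 than in IFN-γ (adjusted p = 0.000314). LPS gave -0.53 (95% interval -1.59 to 0.54, adjusted p = 0.47). IL-4 against untreated gave -1.02 (95% interval -2.27 to 0.22, adjusted p = 0.354) and IL-4 plus LPS against LPS -1.34 (95% interval -2.59 to -0.10, adjusted p = 0.209), and a slide block made both calls (-1.20 with adjusted p = 0.023, and -1.47 with adjusted p = 0.00194).

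Alox5ap, which presents arachidonic acid to Alox5, ran from 5.59 to 6.70 over all 28 arrays. Levels ran from 5.65 to 6.35 on the IL-4 plus LPS arrays, 6.25 to 6.63 on the IL-4 arrays and 5.69 to 6.21 on the IFN-γ plus LPS arrays. They were 5.80, 5.59 and 6.42 on the IFN-γ arrays (E, F and G), 6.02 to 6.69 (median 6.34) on the LPS arrays and 6.28 to 6.70 (median 6.56) on the untreated arrays. IFN-γ arrays E and F lay below all untreated arrays, and array G among them.

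The change with IFN-γ, -0.60 ± 0.19 (adjusted p = 0.019), was called. The call was lost without IFN-γ array E (-0.53, adjusted p = 0.103) or F (-0.43, adjusted p = 0.161). Of 12 settings 8 kept the call, and median scaling (-0.15, adjusted p = 0.797) was among those that lost it. With LPS it was -0.22 (95% interval -0.52 to 0.07, adjusted p = 0.24), but -1.004 after quantile normalization (adjusted p = 3.73e-07). In IL-4 plus LPS against IL-4 it was -0.45 (adjusted p = 0.0793), called in 4 of 10 settings. These were the experiment letter as a replicate block (-0.45, adjusted p = 0.0468), slide (adjusted p = 0.00917) or scan day (adjusted p = 0.0192) as a block, and quantile normalization (-0.94, adjusted p = 8.35e-05). It was also called without IL-4 plus LPS array G (-0.56, adjusted p = 0.035).

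Ltc4s, leukotriene C4 synthase, fell with IFN-γ with little spread between experiments. Its levels were -3.47, -4.02 and -3.48 on the IFN-γ plus LPS arrays and -3.50, -3.94 and -3.40 on the IFN-γ arrays (E, F and G). On the IL-4 plus LPS arrays they were -0.75, -1.70, -0.93 and -1.24, and on the IL-4 arrays -1.20, -0.86, -0.17 and -1.10 (A, B, C and G). LPS arrays ran from -1.12 to 0.41 (median -0.03) and untreated arrays from -0.25 to 0.78 (median 0.18). The 6 IFN-γ-group arrays lay below all 22 others, and here experiment G did not stand apart.

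Ltc4s fell by -3.86 ± 0.28 with IFN-γ (14.5-fold lower, adjusted p = 1.75e-10) and stood -3.46 ± 0.28 in IFN-γ plus LPS against LPS (adjusted p = 4.9e-09). IL-4 against untreated gave -1.08 ± 0.26 (adjusted p = 0.00488), not called under normexp (-0.92, adjusted p = 0.181), median scaling (adjusted p = 0.0571) or with only the experiments that have both groups (-1.12, adjusted p = 0.0546), and IL-4 plus LPS stood -0.96 ± 0.26 against LPS (adjusted p = 0.0169). Set against each other, IL-4 was 2.78 ± 0.31 above IFN-γ (adjusted p = 1.58e-07). The call of IL-4 plus LPS against LPS was lost in 5 of 11 settings (adjusted p up to 0.497), among them the replicate block (-0.90, adjusted p = 0.0725), and without IL-4 plus LPS array B (-0.77, adjusted p = 0.0916) or G (-0.93, adjusted p = 0.0507). LPS against untreated gave -0.45 (adjusted p = 0.105), called with slide as a block (-0.45, adjusted p = 0.0111) and without LPS array F (-0.55, adjusted p = 0.0472).

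Lta4h, which makes leukotriene B4, fell modestly with LPS and with IFN-γ. Levels were 0.86, -0.05, 0.19 and 0.83 on the IL-4 plus LPS arrays and 1.25, 1.10, 1.39 and 1.16 on the IL-4 arrays (A, B, C and G). They were -0.24, -0.33 and 0.08 on the IFN-γ plus LPS arrays and 0.25, 0.13 and 0.45 on the IFN-γ arrays (E, F and G). LPS arrays ran from -0.29 to 0.90 (median 0.41) and untreated arrays from 0.82 to 1.07 (median 0.92). The 4 IL-4 arrays lay above all untreated arrays, and the IFN-γ arrays below them.

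Lta4h changed by -0.59 ± 0.16 with LPS (adjusted p = 0.00384), -0.65 ± 0.21 with IFN-γ (adjusted p = 0.0227) and -0.77 ± 0.21 with LPS in IL-4-primed cells (adjusted p = 0.00658). It was 0.95 ± 0.23 higher in IL-4 than in IFN-γ (adjusted p = 0.00278), and IL-4 against untreated gave 0.30 (95% interval -0.09 to 0.69, adjusted p = 0.408). The fall with IFN-γ was lost without IFN-γ array E (-0.64, adjusted p = 0.0793) or F (-0.58, adjusted p = 0.104) and in 4 of 12 settings (-0.20 under median scaling, adjusted p = 0.74). Median scaling also ended the calls with LPS (-0.53, adjusted p = 0.165), with LPS in IL-4-primed cells (-0.90, adjusted p = 0.0963) and of IL-4 against IFN-γ (0.59, adjusted p = 0.343), and fitting only the groups compared ended that in IL-4-primed cells (adjusted p = 0.0581).

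The scale matters for the small IFN-γ changes. The median over all genes was -0.29 in IFN-γ against untreated when arrays were scaled on their 75th percentile and 0.16 when scaled on their median. Changes of -0.60 for Alox5ap, -0.65 for Lta4h and -0.79 for Hpgds lay below -0.29 but were smaller when read against it. Under median scaling none of these 3 was called, and the rise of Tbxas1 went from 0.54 to 0.98.

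Alox15, the 12/15-lipoxygenase, was dim on these arrays and above background on 10 of 28. It was above background on 3 of 4 IL-4 plus LPS arrays, at -6.00, -5.57, -4.63 and -4.90 (A, B, C and G, with A below background), and on 2 of 4 IL-4 arrays, at -6.09, -5.49, -4.10 and -5.19 (C and G above). None of the 3 IFN-γ plus LPS arrays (-8.46, -8.65 and -8.10) or the 3 IFN-γ arrays (-8.96, -8.71 and -8.39) was. LPS arrays ran from -7.22 to -6.11 (median -6.60, 1 of 7 above background) and untreated arrays from -6.95 to -4.70 (median -6.33, 4 of 7 above background). The IFN-γ groups were thus measured only as a bound.

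With the IFN-γ groups held to the floor, Alox15 was 1.57-fold lower in IFN-γ than in untreated cells (adjusted p = 6.53e-05). In the same way it was 3.09-fold higher in IL-4 than in IFN-γ (adjusted p = 2.38e-06) and 2.14-fold higher in IL-4 plus LPS than in IFN-γ plus LPS (adjusted p = 1.79e-05). The p-values are from the limma fit without a floor. The brighter groups were above background on 4 of 7, 2 of 4 and 3 of 4 arrays, so these folds are not lower bounds. Under normexp none of the 3 was called, and the last became -0.06. IL-4 plus LPS stood 1.36 ± 0.38 above LPS on the fitted scale (adjusted p = 0.0233), but 1 of 7 LPS arrays was above background, and with LPS arrays held to the floor the log2 difference was 0.76. That call was lost without IL-4 plus LPS array C (1.14, adjusted p = 0.105) or G (1.23, adjusted p = 0.085), after quantile normalization (1.22, adjusted p = 0.107) and under normexp (0.24). IL-4 against untreated gave 0.97 (95% interval 0.19 to 1.76, adjusted p = 0.111), called without IL-4 array A (1.27, adjusted p = 0.0486), without untreated array G (1.22, adjusted p = 0.0183) and with slide as a block (1.12, adjusted p = 0.033).

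Arrays sit on 10 slides. In every slide that holds both groups of a comparison, each member called in that comparison had the sign of the whole fit (5 slides for LPS against untreated, 2 each for IL-4 and for IFN-γ against untreated). The IL-4 groups and the IFN-γ groups share no slide, so IL-4 against IFN-γ, with or without LPS, could not be checked this way. The IFN-γ-group arrays of experiment G share a slide with no other group. Checks of the IFN-γ groups against untreated and LPS arrays thus rest on experiments E and F. Where a gene had several probes, none moved opposite to the brightest at an unadjusted p under 0.05. Fewer cells of a type and less RNA per cell cannot be told apart in these bulk samples.

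**Figure D4:**
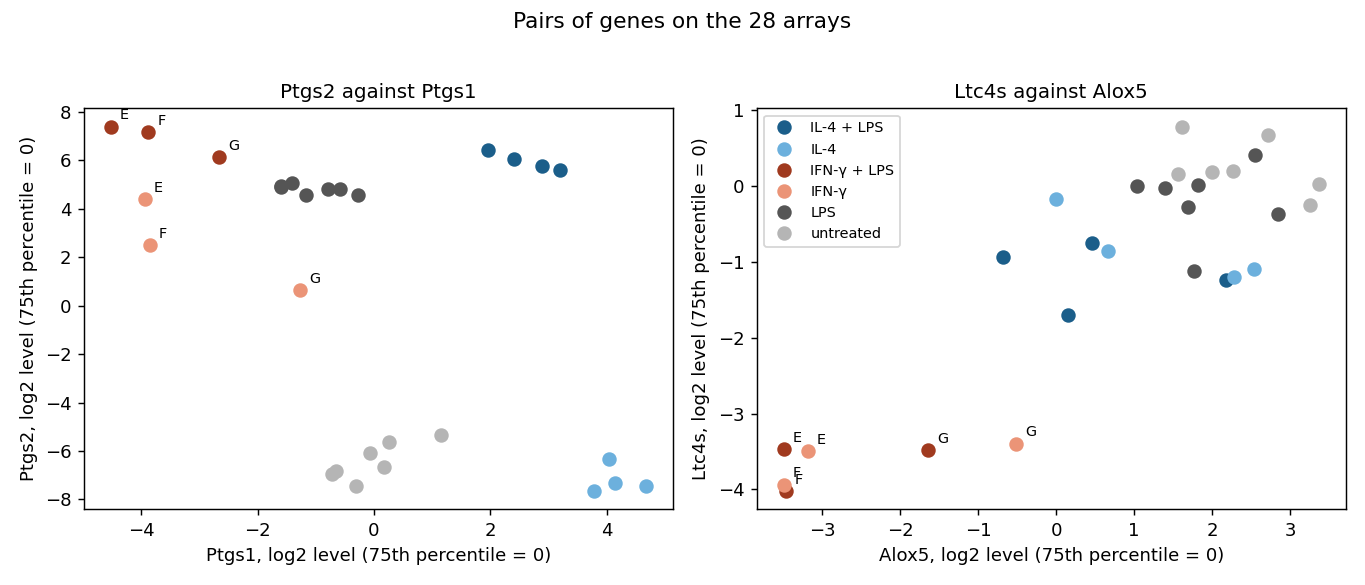
Levels of Ptgs2 against Ptgs1 and of Ltc4s against Alox5 on the 28 arrays (log2, array's 75th percentile = 0), coloured by treatment, with the experiment letter beside the IFN-γ-group arrays. In the left panel the 6 groups occupy separate areas, and in both panels IFN-γ array G lies nearer to the untreated arrays on the horizontal axis than arrays E and F.

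Other genes of the pathway were followed in 7 lists, and their counts against untreated are to be read beside the shares over all genes. LPS called 20.8% of all genes higher and 21.5% lower, IL-4 5.76% and 5.52%, and IFN-γ 12.7% and 13.2%. Of 24 tested genes for arachidonate release and reuptake, LPS raised 3 and lowered 8, IL-4 raised 4 and lowered 1, and IFN-γ raised 7 and lowered 4. Pla2g4a, the cytosolic phospholipase that frees arachidonic acid, rose by 2.55 ± 0.39 with LPS (adjusted p = 5.25e-06) and by 2.70 ± 0.50 with IFN-γ (adjusted p = 0.000202). Pla2g5, a secreted phospholipase, rose by 3.24 ± 0.34 with IL-4 (adjusted p = 1.81e-07) and by 1.46 ± 0.38 with IFN-γ (adjusted p = 0.00498). After LPS the secreted enzyme was still 2.69 ± 0.34 higher with IL-4 (adjusted p = 5.84e-06). Pla2g15, the lysosomal phospholipase, fell by -1.98 ± 0.14 with LPS (adjusted p = 1.72e-11), whereas Lpcat3, which puts arachidonate back into membranes, was at -0.04 (adjusted p = 0.902).

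Of 7 other terminal prostanoid synthases, 2 rose and 3 fell with LPS, 1 rose and 0 fell with IL-4, and 0 rose and 2 fell with IFN-γ. Ptges2, a second prostaglandin E synthase, rose by 0.98 ± 0.18 with IL-4 (adjusted p = 0.000417) and by 0.90 ± 0.15 with LPS (adjusted p = 2.8e-05), and stood -1.37 ± 0.20 in IFN-γ plus LPS against LPS (adjusted p = 1.65e-05). The cytosolic form Ptges3 was at 0.45 with LPS (adjusted p = 0.0554). Among 6 genes of prostaglandin breakdown and transport, 3 rose and 2 fell with LPS, 0 rose and 1 fell with IL-4, and 1 rose and 2 fell with IFN-γ. Hpgd, the enzyme that inactivates prostaglandins, fell by -1.64 ± 0.56 with LPS (adjusted p = 0.0192) and was at least 13.6-fold lower with IFN-γ (adjusted p = 3.49e-05). The organic anion transporter Slco3a1 rose by 4.27 ± 0.19 with LPS (adjusted p = 4.55e-15) and 4.07 ± 0.25 with IFN-γ (adjusted p = 8.85e-12), and fell by -1.76 ± 0.23 with IL-4 (adjusted p = 3.92e-06).

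Receptors changed in different directions. Of 7 prostanoid receptors, LPS raised 1 and lowered 2, IL-4 raised 2 and lowered 1, and IFN-γ called 0 by limma (2, Ptger2 and Ptgir, at an unadjusted p under 0.05). Ptger4, a prostaglandin E2 receptor, rose by 1.76 ± 0.22 with LPS (adjusted p = 1.99e-07) and fell by -1.67 ± 0.25 with IL-4 (adjusted p = 3.68e-05). Ptgir, the prostacyclin receptor, rose by 1.70 ± 0.26 with IL-4 (adjusted p = 4.27e-05), and Ptger3, another prostaglandin E2 receptor, fell by -2.51 ± 0.36 with LPS (adjusted p = 2.24e-06).

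Of 7 leukotriene and lipoxin receptors, LPS raised 4 and lowered 1, IL-4 raised 1 and lowered 2, and IFN-γ raised 3 and lowered 0. Ltb4r1, the high-affinity leukotriene B4 receptor, rose by 3.05 ± 0.31 with IL-4 (adjusted p = 7.72e-08) and fell by -1.04 ± 0.26 with LPS (adjusted p = 0.00186). Cysltr2, a receptor of the cysteinyl leukotrienes, rose by 2.25 ± 0.21 with LPS (adjusted p = 1.47e-09) and by 2.64 ± 0.27 with IFN-γ (adjusted p = 4.34e-08). Fpr2, a formyl peptide receptor that also binds lipoxin, rose by 6.09 ± 0.30 with LPS (adjusted p = 1.9e-14) and 3.69 ± 0.39 with IFN-γ (adjusted p = 8.39e-08), and fell by -3.87 ± 0.35 with IL-4 (adjusted p = 1.52e-08).

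Of 10 genes of leukotriene breakdown and transport, 1 rose and 1 fell with LPS, 1 rose and 3 fell with IL-4, and 1 rose and 5 fell with IFN-γ. Mgst2, which can also make leukotriene C4, fell by -1.19 ± 0.25 with IL-4 (adjusted p = 0.00143), and Dpep2, a dipeptidase of cysteinyl leukotrienes, by -0.94 ± 0.18 with IFN-γ (adjusted p = 0.000303). Of 10 other lipoxygenases and epoxide enzymes, 2 rose and 3 fell with LPS, 1 rose and 0 fell with IL-4, and 0 rose and 5 fell with IFN-γ. Ephx1, an epoxide hydrolase, rose by 1.68 ± 0.37 with IL-4 (adjusted p = 0.00231) and fell by -3.43 ± 0.40 with IFN-γ (adjusted p = 4.32e-07).

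**Figure D5:**
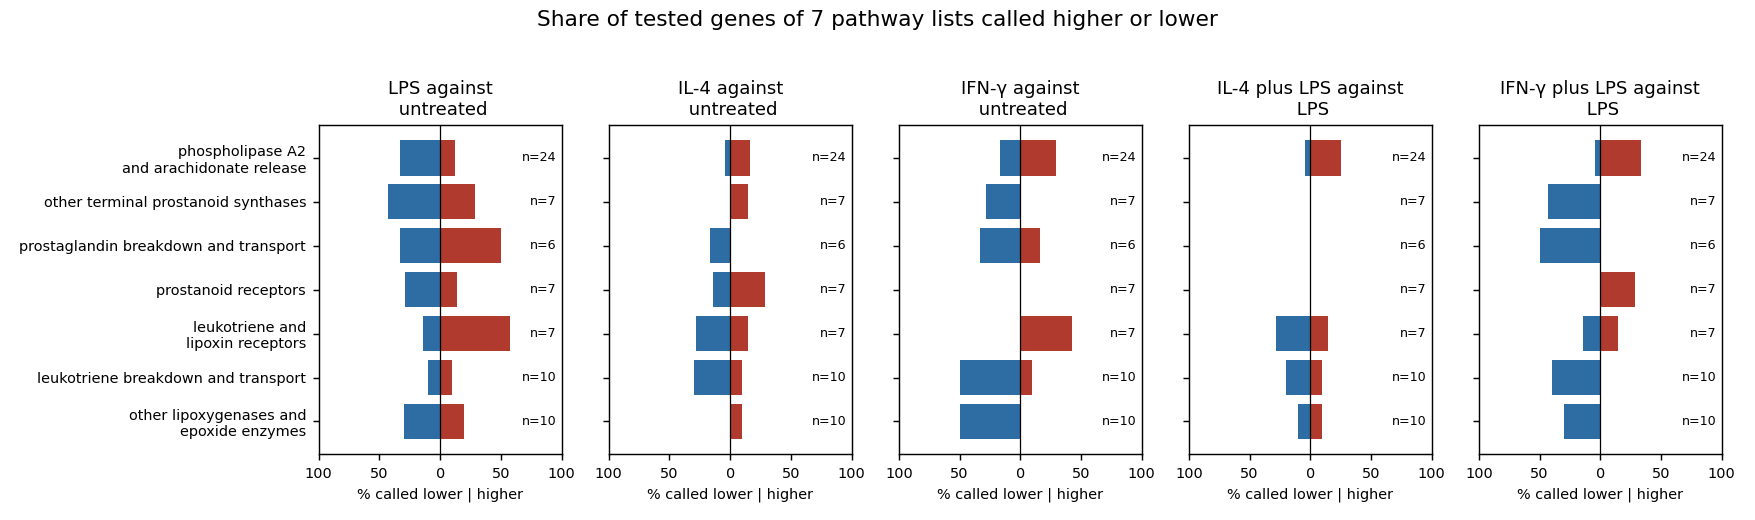
Share of the tested genes of 7 pathway lists called lower (blue, to the left) or higher (red, to the right) in 5 comparisons; n is the number tested. With IFN-γ against untreated, 5 of 10 genes of leukotriene breakdown and 5 of 10 other lipoxygenases and epoxide enzymes were called lower, beside 13.2% of all genes.

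Markers of other cell types were read beside the members, each list as the log2 of its summed linear levels. The mast cell list (11 genes) summed to 4.54 to 5.56 with IL-4 plus LPS, -1.19 to -0.09 with IL-4, 3.20 to 3.40 with IFN-γ plus LPS, 1.36 to 1.69 with IFN-γ, 4.57 to 5.79 with LPS and -0.66 to 0.16 in untreated cells. Its sum followed Hdc, which makes histamine, at a mean of 4.94 with LPS and -0.89 in untreated cells. Of the 11 genes, 4 to 6 were above background on every array of a group. Fcer1a, a chain of the IgE receptor, Cma1, a mast cell chymase, and Hdc were above background on all 28 arrays and Kit, the stem cell factor receptor, on 26, whereas Mcpt2 was on 4 and Tpsab1, a tryptase, on 1.

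The eosinophil list (7 genes) summed to -0.35 to 1.64 with IL-4 plus LPS, 0.38 to 2.87 with IL-4, -1.64 to -1.37 with IFN-γ plus LPS, -2.66 to -2.35 with IFN-γ, -0.45 to 0.21 with LPS and -1.51 to -0.74 in untreated cells. In the IL-4 groups the sum followed Ear1, an eosinophil ribonuclease, at a mean of 0.97 with IL-4 and -5.55 in untreated cells, while Epx, Prg2 and Prg3, eosinophil granule proteins, and Siglecf and Ccr3 had lower means with IL-4 than in untreated cells. The platelet and megakaryocyte list (8 genes) summed to 5.49 to 6.12 with IL-4 plus LPS, 4.92 to 5.60 with IL-4, 4.03 to 5.02 with IFN-γ plus LPS, 4.35 to 4.60 with IFN-γ, 5.81 to 6.78 with LPS and 5.48 to 6.18 in untreated cells. The neutrophil list (7 of 8 genes on the array) summed to 0.65 to 2.39 over all groups, with Mpo, Ngp, Camp and Ltf above background on all 28 arrays, Cxcr2 on 22 and Elane and Retnlg on 6 each.

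Among the other lists, the dendritic cell list was above untreated cells with LPS and with IFN-γ. The fibroblast and endothelial list was above them with LPS but not with IFN-γ alone. The dendritic cell list (6 genes) summed to 0.66 to 1.73 with IL-4 plus LPS, -1.14 to -0.80 with IL-4, 2.21 to 3.75 with IFN-γ plus LPS, 0.06 to 1.22 with IFN-γ, 1.01 to 3.08 with LPS and -1.41 to -0.65 in untreated cells. The fibroblast and endothelial list (8 genes) summed to 1.11 to 1.78 with IL-4 plus LPS, -1.69 to -0.35 with IL-4, -0.42 to 0.16 with IFN-γ plus LPS, -1.81 to -1.79 with IFN-γ, 1.43 to 2.46 with LPS and -1.79 to -0.99 in untreated cells. With LPS the dendritic cell sum followed Zbtb46, at a mean of 1.44 with LPS and -3.37 in untreated cells, while Flt3 was at -4.22 and -4.05. The fibroblast and endothelial sum followed Pdgfrb, at 1.64 and -4.43, while Col1a1 was at -3.54 and -3.64. The T and B lymphocyte list (7 genes) summed to -1.67 to 0.31 over all groups. The part of these cell types in the members' changes was not tested.

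Genes with the pattern most like each member were named by Pearson's r over the 28 arrays, which mostly reflects the differences between groups. Fas (r = 0.989), Socs3 (0.984) and Cd40 (0.983) were nearest to Ptgs2, and Stx11, Tbk1 and Pfkfb3 (0.975 to 0.974) to Ptges. Crip2, Il27ra and Fads3 (0.965 to 0.953) were nearest to Ptgs1. For Alox5 the nearest were Iqgap3, Tacc3 and Troap (0.956 to 0.939), the last 2 of which act at the mitotic spindle, and for Ltc4s Abca9, Slc9a9 and Myl2 (0.977 to 0.965). Ephx1, a pathway gene described above, was nearest to Alox15 (0.916), together with Ephb6 and Angpt4. For Lta4h they were Hadh, Gtf3a and Add3 (0.966 to 0.948), for Tbxas1 Endog, Vwf and Snx5 (0.906 to 0.881), for Alox5ap Calm2, Cenpp and Cip2a (0.906 to 0.904) and for Hpgds Yipf7, Mterf2 and Gpr162 (0.836 to 0.830).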

How the data were processed

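RNA of 28 macrophage cultures in 6 groups was hybridised to 1-colour Agilent arrays. The scanner files hold spot intensity values that, per the file headers, the authors made with Agilent Feature Extraction 9.5.1, with spatial detrending and no background subtraction. The authors' deposited value table is on a log2 scale, with each probe's untreated median at 0 (within 0.001 for all 41174 probes), column medians of -0.27 to 0.59 and an unstated normalization. It was used only as an alternative, since its columns mostly match other arrays.

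Processed signals were put on the log2 scale and the array's 75th percentile was subtracted. Control and outlier spots were left out (at most 414 outlier spots an array), spots of a probe averaged and the brightest probe taken per gene. Genes were tested with limma 3.58.1 in R 4.3.3, in 1 model of 6 group means with 11 comparisons and two-sided moderated tests. P-values were adjusted by Benjamini-Hochberg over all 22446 genes tested (22445 in comparisons with IFN-γ). The scripts were tested on simulated data. The number of arrays limits the precision. Members, pathway lists and marker lists were chosen with earlier results of these data known. Pathway genes were named from the up to 4 called with the largest change and up to 2 not called with the largest adjusted p, per list and comparison. The 3 genes with the highest Pearson correlation were named for each member.

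The experiment letter was checked as a pairing. Deviations of same-lettered arrays correlated at 0.16 to 0.73 in IL-4 plus LPS against IL-4 (4 pairs) and 0.28 to 0.64 in IFN-γ plus LPS against IFN-γ (3 pairs). All 3 IFN-γ pairs and the IL-4 pairs C and G each share a slide, so letter and slide cannot be told apart in them. The IL-4 pairs A and B, on different slides, correlated at 0.16 and 0.19. Alternatives changed the background correction (normexp with an offset of 50), the scaling, the filter, the probe rule, the blocks and the arrays in the fit.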

Additional observations from a re-analysis of the deposited data

Results flagged for a closer look

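In 2 members the LPS response differed between IFN-γ-primed and unprimed cells by a test of the difference itself (limma interaction). For Ptgs2 it was -6.85 on the log2 scale (95% interval -8.35 to -5.35, adjusted p = 9.6e-07), with LPS changes of 4.37 after IFN-γ and 11.22 without priming. For Ptges it was -3.17 (95% interval -4.14 to -2.20, adjusted p = 6.73e-05), with LPS changes of 2.27 after IFN-γ and 5.43 without priming. Over 32 alternatives both were called each time, at -7.78 to -3.78 for Ptgs2 and -3.35 to -2.61 for Ptges. In the IL-4 plus LPS, IL-4, LPS and untreated groups Dixon's test found 0 members with an array far from the others (40 sets of values tested). The IFN-γ groups, with 3 arrays each, were not tested, and there experiment G stood apart in Ptgs1 and Alox5.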

How the results depend on the processing

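Under normexp the members called were 3 (against 5) for IL-4 against untreated, 5 (against 10) for IFN-γ against untreated, 3 (against 6) for IL-4 plus LPS against IL-4 and 2 (against 6) for IFN-γ plus LPS against LPS. Alox15 turned direction there, to 0.31 in IFN-γ plus LPS against LPS and -0.06 in IL-4 plus LPS against IFN-γ plus LPS, and the cause was not tested. Median scaling called 3 (against 6) for LPS against untreated and 3 (against 6) for IL-4 plus LPS against LPS. It also moved the share of calls that were higher in IFN-γ against untreated, over all genes, to 77.8% (against 49.0%). Fits of only the experiments that have both groups, which hold fewer arrays, called 6 for IFN-γ against untreated and 2 for IL-4 plus LPS against LPS. The interaction of IL-4 with LPS had 1 member called with slide as a block and 1 when only the groups compared were fitted (against 0).

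Leaving out single arrays gave 5 to 7 members for LPS against untreated, 4 to 6 for IL-4, 6 to 10 for IFN-γ (6 without IFN-γ array E or F), 4 to 6 for IL-4 plus LPS against IL-4, 2 to 2 for IFN-γ plus LPS against IFN-γ, 4 to 6 for IL-4 plus LPS against LPS, 6 to 7 for IFN-γ plus LPS against LPS, 7 to 10 for IL-4 against IFN-γ, 5 to 7 for both with LPS, 0 to 0 for the IL-4 interaction and 2 to 2 for the IFN-γ interaction. Without both IFN-γ-group arrays of experiment G, a choice made after seeing the data, 8 were called for IFN-γ against untreated. With the replicate block, Hpgds (-0.61, adjusted p = 0.149), Lta4h (-0.66, adjusted p = 0.0526) and Tbxas1 (0.47, adjusted p = 0.117) lost their calls for IFN-γ and Ltc4s (-0.90, adjusted p = 0.0725) for IL-4 plus LPS against LPS, where the letters were not shown to pair the arrays. In IL-4 plus LPS against IL-4 and in IFN-γ plus LPS against IFN-γ, the block changed the call of Alox5ap in the first and no other member's. The value table was run for LPS against untreated only. Signal near background limits Alox15, and Ptgs2 in untreated and IL-4 cells.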
